A study of Mus musculus with 15 samples.

Results

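The genes described here are 10 imprinted genes of the mouse: Nnat, Meg3, Rian, Mirg, Dlk1, Peg3, H19, Cdkn1c, Plagl1 and Grb10. They were chosen by symbol, and each had 1 row in a table of 24346 genes. All 10 reached the level needed for testing, 1 FPKM (fragments mapped, scaled for transcript length and library depth) in at least 3 of 15 libraries. The study followed astrocytes that were turned towards neurons by chemicals in culture and compared them with primary neurons. Every sample came from brain of the C57BL/6 strain, and total RNA was sequenced. D0 is the group labelled astrocytes, D4, D8 and D16 are the groups labelled chemical-induced neurons with those time marks, and PN is the group labelled primary neurons, with 3 libraries in each of the 5 groups. The labels used here name no chemical, age or culture medium, and do not say whether libraries of a group came from separate cultures. P-values therefore measure only the spread between these libraries, which may be technical.

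Imprinted genes are expressed from the copy inherited from 1 parent, according to DNA methylation set down in the egg or sperm and kept afterwards. They lie in domains in which a differentially methylated control region governs several genes, often a growth-promoting gene expressed from the paternal copy beside a non-coding RNA or growth inhibitor expressed from the maternal copy. Nnat, Dlk1, Peg3 and Plagl1 are known as paternally expressed, and Meg3, Rian, Mirg, H19 and Cdkn1c as maternally expressed. Grb10 is known to use the maternal copy in most tissues and the paternal copy in neurons. The libraries are from 1 strain, and the table gives 1 value per gene, so the values are sums over both copies and say nothing on which copy was read.

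Promoter windows are shown for Nnat, Dlk1 and Meg3, which were higher in induced cells than in astrocytes, and for Grb10, whose window was the richest in CpG among the members. CpG is the dinucleotide whose methylation carries the imprint. Methylation was not measured here, and the windows were not compared with known control regions, so none of them is shown to carry an imprint. Each window is the 200 bases before a start in RefSeq, on the gene's strand from 5′ to 3′, in build GRCm38.p6, with each CpG in capitals. The windows are chr2:157559878-157560077 (plus strand) for Nnat, chr12:109452623-109452822 (plus strand) for Dlk1, chr12:109540796-109540995 (plus strand) for Meg3 and chr11:12037421-12037620 (minus strand) for Grb10.
Nnat: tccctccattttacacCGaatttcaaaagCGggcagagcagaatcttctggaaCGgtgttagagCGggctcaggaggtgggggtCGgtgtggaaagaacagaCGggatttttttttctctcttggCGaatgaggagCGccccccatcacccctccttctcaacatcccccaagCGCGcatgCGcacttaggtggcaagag
Dlk1: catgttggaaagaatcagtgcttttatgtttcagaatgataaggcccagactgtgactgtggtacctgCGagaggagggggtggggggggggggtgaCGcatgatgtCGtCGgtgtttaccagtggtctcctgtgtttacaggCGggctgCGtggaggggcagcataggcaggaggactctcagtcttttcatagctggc
Meg3: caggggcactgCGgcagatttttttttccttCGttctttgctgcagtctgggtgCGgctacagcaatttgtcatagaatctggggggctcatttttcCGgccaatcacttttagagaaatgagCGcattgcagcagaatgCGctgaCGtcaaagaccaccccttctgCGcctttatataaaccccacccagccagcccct
Grb10: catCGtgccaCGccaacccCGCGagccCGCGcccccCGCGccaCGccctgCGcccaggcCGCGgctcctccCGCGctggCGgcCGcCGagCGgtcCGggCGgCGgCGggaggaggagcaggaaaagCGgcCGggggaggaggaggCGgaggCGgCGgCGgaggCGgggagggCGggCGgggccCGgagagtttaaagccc
The Grb10 window holds 32 CpG, a number reached by 1.77% of 32851 windows of the same length. The Nnat window holds 11 CpG, reached by 31.7% of windows, the Meg3 window 8, reached by 39.4%, and the Dlk1 window 6, reached by 46.1%. The median window holds 5. A second Grb10 window, not shown, holds 7 CpG, reached by 42.5% of windows, and a second Meg3 window, not shown, holds 0. The Dlk1 window lies inside the RefSeq bounds of the gene, before a later start. The letters TGCCGC, the core of the motif bound by the imprint-keeping protein ZFP57 when it is methylated, were searched on both strands. They were in 2 of the 10 windows found for 8 members (Plagl1 and the Meg3 window above), against 7.37% of all windows. With so few windows, some of them from the same gene, no excess of the motif is read from this.

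Meg3, Rian and Mirg are host transcripts of small RNAs on chromosome 12. Within their RefSeq bounds lie 15 miRNA genes that give 28 mature miRNAs with 27 different seeds (bases 2 to 8, in capitals below, 5′ to 3′). The 1 shared seed joins a pair of Mirg miRNAs, and a Rian miRNA is shown for comparison.
mmu-miR-453: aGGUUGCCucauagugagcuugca
mmu-miR-496a-5p: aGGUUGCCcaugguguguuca
mmu-miR-370-3p: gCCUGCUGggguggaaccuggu
Between the start of Dlk1 and the end of Mirg the table has 68 other rows, of which 59 are miRNA genes, and all 59 were listed at 0 in every library. The table thus gives the long host transcripts and no value for the small RNAs they carry.

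FPKM totals of the libraries ran from 548309 to 787080, and 11861 to 12907 genes reached 1 FPKM. Relative depth, taken from the steps between the lowest values of a library, ran from 0.702 to 2.04. It was 1.68 to 2.04 in PN and 0.742 to 1.09 in D16, so depth was unequal between those groups. Log2 values of libraries of a group correlated at r = 0.966 to 0.987 across genes. Summed FPKM of 10 neuronal markers was 278.3 to 391.3 in D0, 829.3 to 890.3 in D16 and 3243 to 4481 in PN. Of these markers, 7 rose and none fell in D16 against D0. Stmn2 held much of the D0 sum, with means of 304.2 FPKM in D0, 213.4 in D16 and 1205 in PN. In D16 against PN, 7 of the 10 markers were called lower, 3 were not called and none was called higher. Of all genes tested, 34.6% were called there, 15% as lower. Tubb3 stood at 168.0 FPKM in D16 and 1660 in PN, Map2 at 30.9 and 215.9, and Dcx at 0.318 and 132.5. Snap25 (171.9 and 195.1), Syp (195.6 and 259.3) and Nefm (37.3 and 21.7) were near or above their PN means in D16. Summed FPKM of 10 astrocyte markers was 788.9 to 1861 in D0, 139.0 to 174.1 in D16 and 229.6 to 402.3 in PN. Astrocyte markers were thus not absent from PN. In D16 against PN, 5 of these 10 were called lower, 5 were not called and none was called higher. In such bulk RNA, fewer cells of a type and less RNA per cell cannot be told apart.

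Most of the 10 genes were higher in induced cells than in astrocytes. A call needed a limma adjusted p (Benjamini-Hochberg over all 13983 genes tested) below 0.05 and a change of 1 or more on the log2(FPKM + 1) scale, and "rose" and "fell" are kept for called changes. In D4 against D0, 7 members rose and none fell, where 27.8% of all genes tested were called, 13.6% as higher. In D8, 6 rose and 1 fell (32.4% of all genes called, 15.5% higher), and in D16 again 6 rose and 1 fell (35.3% called, 16.6% higher). In PN, 6 rose and 2 fell, against 41% of all genes called and 17.1% higher. The median change of the members was 1.38, 1.3, 1.24 and 1.49 log2 in D4, D8, D16 and PN, beside -0.01, 0.00, -0.01 and -0.12 over all genes tested. The members were chosen with earlier results of these data known, so their counts and medians beside all genes are a description and no test. These 4 comparisons share the D0 libraries. The all-gene median of -0.12 in PN moved to -0.01 when libraries were set to an equal FPKM total.

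**Figure D1:**
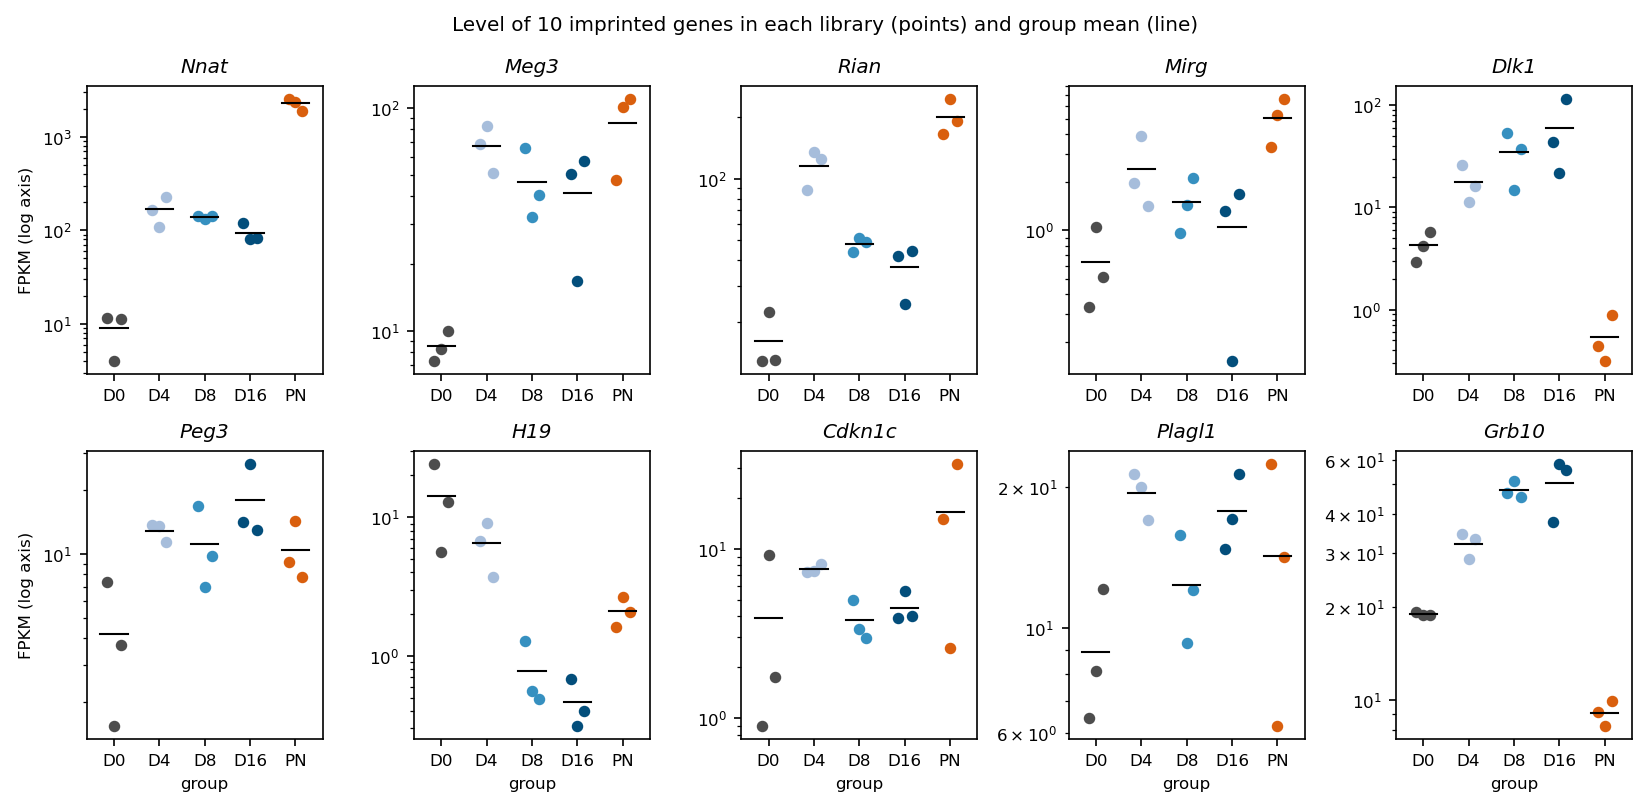
Level of each gene in FPKM on a log axis, by group; each point is a library, and each line is the mean of 3 libraries. Nnat is between 1908 and 2530.0 FPKM in PN and below 12 in D0, while Dlk1 and Grb10 are lowest in PN and highest in D16.

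Nnat (neuronatin) encodes a small membrane proteolipid of the endoplasmic reticulum that is abundant in developing neurons. It lies at chr2:157560078-157562525, inside Blcap, a ubiquitous membrane protein gene at chr2:157556362-157566361. Nnat was at 11.6, 3.99 and 11.2 FPKM in D0. It was at 163.9, 109.4 and 229.0 in D4 and at 142.3, 133.0 and 141.6 in D8. In D16 it was at 118.4, 81.6 and 83.2, and in PN at 2530.0, 2383 and 1908. All induced libraries were above all D0 libraries and below all PN libraries. Mean levels were 8.95 ± 4.29 (SD, n = 3) in D0, 167 ± 59.9 in D4, 139 ± 5.21 in D8, 94.4 ± 20.8 in D16 and 2274 ± 325 in PN. Nnat thus rose 18.7-fold by D4 (log2 change 4.14 ± 0.32 SE, adjusted p = 7.85e-08), and the D16 mean was 10.6 times that of D0 (3.36, adjusted p = 3.03e-07). Primary neurons had 254 times the astrocyte level (7.94, adjusted p = 2.56e-11) and 24.1 times the D16 level, where D16 against PN gave -4.59 (adjusted p = 1.28e-08). In D16 against PN, 2 members were higher and 5 lower, beside 34.6% of all genes called, 19.6% as higher and 15% as lower. From D4 to D8 (-0.20) and from D8 to D16 (-0.57) Nnat was not called.

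The host gene Blcap moved far less than Nnat. Its mean was 33.9 FPKM in D0, 48.3 in D4, 59.6 in D16 and 76.7 in PN, and it was called only in PN against D0 (1.17, adjusted p = 2.23e-06). In D4 (0.51, adjusted p = 0.00605), D8 (0.73, 0.000329) and D16 (0.81, 0.000124) the adjusted p passed and the change was under the minimum of 1. The ratio of Nnat to Blcap was 0.145 to 0.326 in D0 libraries, 2.44 to 4.24 in D4, 2.35 to 2.52 in D8, 1.36 to 1.83 in D16 and 25.3 to 32.1 in PN. Only the D4 and D8 ranges overlapped. The strand setting of the counting was not given in the sources used here, and the genes overlap. The 4 other genes within 250 kb of Nnat that reached 5 FPKM in some group were Rpn2, Manbal, Src and Ctnnbl1. Src, a tyrosine kinase, was at 44.7 FPKM in D0 and 15.5 in D16 and fell (-1.49, adjusted p = 1.38e-06), and Rpn2, a subunit of the glycosylation machinery, fell in PN (-1.40, adjusted p = 6.27e-07).

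The Dlk1-Dio3 domain on chromosome 12 holds 4 of the members. Dlk1, at chr12:109452485-109463336, encodes a transmembrane relative of the Notch ligands that is best known for holding back fat cell differentiation and for its role in neural progenitors. Dlk1 was at 2.91, 4.16 and 5.76 FPKM in D0 and at 25.8, 11.3 and 16.2 in D4. It was at 53.3, 14.9 and 37.1 in D8, at 43.7, 21.9 and 114.7 in D16, and at 0.444, 0.314 and 0.877 in PN. Every induced library was above every D0 library, and every PN library was below. Dlk1 rose in D4 (1.79 ± 0.51, adjusted p = 0.00781), in D8 (2.64, adjusted p = 0.000398) and in D16 (3.25, adjusted p = 5.25e-05), and fell in PN (-1.75, adjusted p = 0.00684). The mean in D16, 60.1 ± 48.6, was 110.3 times that in PN, 0.545 ± 0.295 (5.01, adjusted p = 7.15e-07). The libraries of D4, D8 and D16 overlapped, and D8 against D4 (0.84) and D16 against D8 (0.62) were not called.

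Meg3, Rian and Mirg are long non-coding RNAs read from the maternal copy of the same domain, and Rian also hosts small nucleolar RNAs. Meg3, at chr12:109540996-109571729, was at 7.30, 8.29 and 9.95 FPKM in D0 and at 68.5, 82.9 and 51.0 in D4. It was at 66.1, 32.2 and 40.5 in D8, at 50.3, 16.7 and 57.8 in D16, and at 47.2, 100.7 and 109.4 in PN. All induced and PN libraries were above D0, and they overlapped among themselves. Meg3 rose 7.92-fold in D4 (2.83 ± 0.41, adjusted p = 3.72e-05), and also in D8 (2.26, adjusted p = 0.000231), D16 (2.0, adjusted p = 0.000593) and PN (3.11, adjusted p = 6.93e-06). In D16 against PN the change was -1.11 (adjusted p = 0.0276). That call was lost without D16 replicate 2 (-0.57, adjusted p = 0.17), PN replicate 2 (-0.95, 0.0941) or PN replicate 3 (-0.89, 0.103), with only those groups in the fit (adjusted p = 0.0838) and with no filter on low values (0.0525).

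Rian, at chr12:109603945-109661716, was at 12.9, 22.3 and 13.1 FPKM in D0 and at 88.0, 135.7 and 124.4 in D4. It was at 44.0, 51.5 and 49.2 in D8, at 41.9, 24.4 and 44.3 in D16, and at 164.6, 244.9 and 192.1 in PN. The order of the means was PN, D4, D8, D16 and D0, and among neighbours in that order only D8 and D16 overlapped. Rian rose 7.21-fold in D4 (2.80 ± 0.25, adjusted p = 3.75e-07) and was still higher than in D0 in D8 (1.57, adjusted p = 7.66e-05) and D16 (1.15, adjusted p = 0.00104). The D16 change was 0.99 without D16 replicate 3. From D4 to D8 Rian fell by 1.23 (adjusted p = 0.0128), one of 2 members called there, both lower, beside 2.01% of all genes called, 0.501% as higher and 1.51% as lower. Without D4 replicate 2 (-1.10, adjusted p = 0.0748), D4 replicate 3 (-1.17, 0.0624) or D8 replicate 1 (-1.17, 0.0545) it was not called. Rian was higher in PN than in D0 (3.59, adjusted p = 7.49e-09) and lower in D16 than in PN (-2.44, adjusted p = 8.29e-07).

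Mirg, at chr12:109734981-109749458, was the lowest of the 3 RNAs. It was at 0.333, 1.04 and 0.515 FPKM in D0 and at 1.98, 3.87 and 1.42 in D4. It was at 0.962, 1.44 and 2.13 in D8, at 1.33, 0.152 and 1.68 in D16, and at 3.33, 5.27 and 6.63 in PN. D4 and PN libraries were above all D0 libraries, while D8 and D16 overlapped D0. Mirg rose in PN (1.88 ± 0.33, adjusted p = 0.00014) and in D4 (1.03, adjusted p = 0.0169), was not called in D8 (0.62, adjusted p = 0.123) or D16 (0.27, adjusted p = 0.505), and was lower in D16 than in PN (-1.61, adjusted p = 0.00066). The D4 call was lost with quantile normalization (0.71, adjusted p = 0.0865) and without D0 replicate 1 (0.90, 0.0625), D0 replicate 3 (0.99, 0.0474) or D4 replicate 2 (0.74, 0.0909).

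The coding gene and the non-coding RNAs of the domain kept different proportions in the groups. The ratio of Dlk1 to Meg3 was 0.399 to 0.579 in D0, 0.137 to 0.377 in D4, 0.463 to 0.914 in D8, 0.867 to 1.99 in D16 and 0.00311 to 0.0094 in PN. It was thus above all D0 libraries in every D16 library and below all of them in every D4 and PN library. Across the 15 libraries, log2 levels of Meg3 and Rian correlated at r = 0.868, of Rian and Mirg at 0.896 and of Meg3 and Mirg at 0.789. The value for Meg3 and Dlk1 was 0.0836. These correlations describe libraries that share groups. Rtl1 and Dio3, 2 other coding genes of the domain, stayed under the filter.

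**Figure D2:**
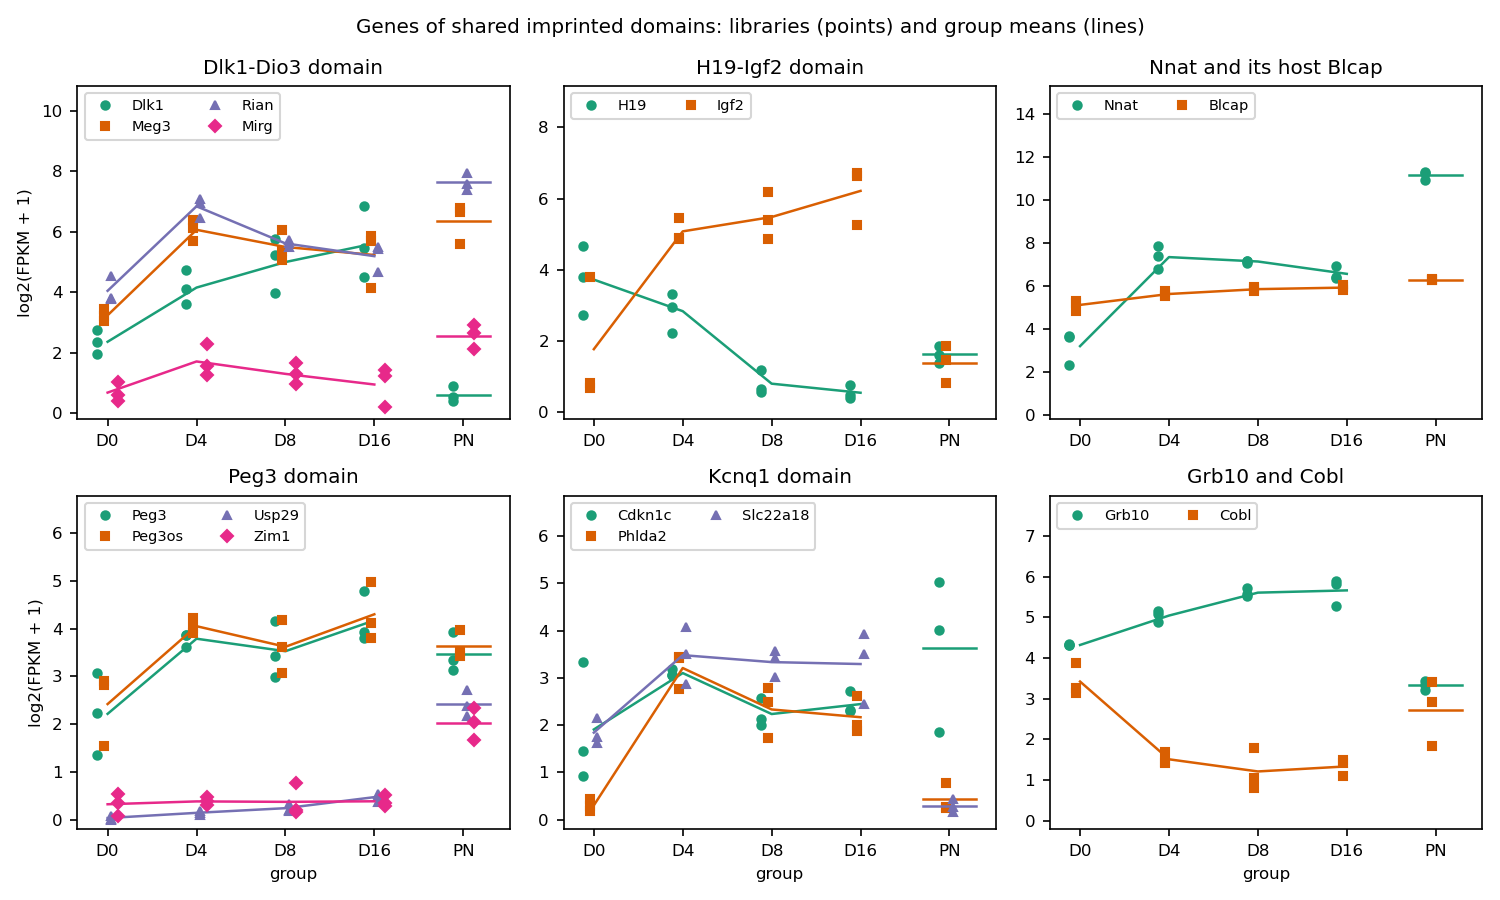
Genes of 6 imprinted regions on the log2(FPKM + 1) scale by group; points are libraries, lines join the means of D0, D4, D8 and D16, and horizontal bars are PN means. In the H19-Igf2 panel the D16 libraries of Igf2 (37.5 to 105.1 FPKM) and of H19 (0.312 to 0.685 FPKM) lie far apart.

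Among the growth regulators, H19 and its neighbour Igf2 went opposite ways in induced cells. H19 is a non-coding RNA of fetal tissues that hosts a growth-limiting miRNA, and it shares enhancers with Igf2, an insulin-like growth factor expressed from the paternal copy. H19, at chr7:142575530-142578146, was at 24.2, 5.60 and 12.8 FPKM in D0 and at 6.73, 9.03 and 3.69 in D4. It was at 1.28, 0.557 and 0.485 in D8, at 0.685, 0.312 and 0.403 in D16, and at 1.62, 2.64 and 2.07 in PN. D4 overlapped D0, and all D8, D16 and PN libraries were below both. H19 fell in D8 (-2.92 ± 0.38, adjusted p = 1.03e-05), in D16 (-3.18, adjusted p = 3.85e-06), in PN (-2.10, adjusted p = 0.000171) and from D4 to D8 (-2.04, adjusted p = 0.00716). In D4 the change was -0.89 (adjusted p = 0.0616), and it passed without D0 replicate 2 (-1.39, adjusted p = 0.00287) or D4 replicate 2 (-1.13, 0.0361). H19 was lower in D16 than in PN (-1.08, adjusted p = 0.0225), a call lost without D16 replicate 2 (-1.0, 0.0632), D16 replicate 3 (-1.05, 0.055) or PN replicate 2 (-0.96, 0.074).

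The summed level of 7 markers of dividing cells moved with H19. It was 296.8 to 400.7 FPKM in D0, 46.2 to 81.4 in D4, 4.01 to 5.19 in D8, 2.46 to 4.34 in D16 and 21.9 to 45.2 in PN, with all 7 markers at 1 FPKM or more in D0, D4 and PN, 1 of them in D8 and 2 in D16. All 7 fell in each comparison with D0. Their part in the H19 result was not tested.

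Igf2 was at 0.589, 13 and 0.777 FPKM in D0 and at 42.9, 28.9 and 28.4 in D4. It was at 71.7, 27.9 and 41.4 in D8, at 37.5, 99.1 and 105.1 in D16, and at 0.757, 1.78 and 2.65 in PN. All induced libraries were above all D0 and PN libraries. Igf2 rose in D4 (3.31 ± 0.65, adjusted p = 0.000573) and D16 (4.45, adjusted p = 2.87e-05), was not called in PN (-0.38, adjusted p = 0.635), and was higher in D16 than in PN (4.83, adjusted p = 1.33e-05). The ratio of Igf2 to H19 was 0.0243 to 2.32 in D0, 54.8 to 317 in D16 and 0.467 to 1.28 in PN. D0 replicate 2 held the high Igf2 value, and it also had the highest sum of 12 fibroblast and mural cell markers (116.6 to 296.3 in D0, 19.5 to 24.9 in D16). In D0, 6 of the 12 reached 1 FPKM, and Lum was listed at 0 in all 3 libraries. In D16 the number that reached 1 FPKM was again 6. Col1a1 (means of 133.5 FPKM in D0 and 4.36 in D16) and Col1a2 (57.2 and 0.974) held most of the D0 sum. Of the 10 markers tested, 3 rose and 4 fell in D16 against D0, beside 35.3% of all genes called. Foxd1, for example, went from 0.619 to 6.52 FPKM. The part of these markers in the Igf2 and H19 values was not tested.

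Cdkn1c encodes p57, an inhibitor of cyclin-dependent kinases that lets progenitors leave the cell cycle, and lies at chr7:143458339-143461059 in the Kcnq1 domain. It had the largest standard error of the members. Cdkn1c was at 0.901, 9.13 and 1.75 FPKM in D0 and at 7.30, 7.38 and 8.11 in D4. It was at 5.0, 3.37 and 2.98 in D8, at 3.89, 5.60 and 4.01 in D16, and at 15.1, 2.60 and 31.6 in PN. Every group overlapped D0. Cdkn1c was not called in D4 (1.19 ± 0.64, adjusted p = 0.129), D8 (0.33, 0.68), D16 (0.54, 0.483) or D16 against PN (-1.18, 0.121). Its 1 call was in PN (1.72, adjusted p = 0.0277). That call was lost without D0 replicate 1 (1.23, 0.132), D0 replicate 3 (1.49, 0.0911), PN replicate 1 (1.53, 0.0856) or PN replicate 3 (1.02, 0.159), with only those groups in the fit (0.144) and with no filter (0.0545). Without D0 replicate 2, the library with 9.13 FPKM, the D4 change was 1.91 (adjusted p = 0.0176), and without PN replicate 2 the D16 against PN change was -2.07 (0.00335).

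Phlda2 and Slc22a18 of the Kcnq1 domain had smaller standard errors (0.28 and 0.34) than Cdkn1c. Phlda2, a growth-limiting gene of the placenta, had mean levels of 0.236 FPKM in D0, 8.46 in D4, 4.27 in D8, 3.61 in D16 and 0.373 in PN, and rose in D4 (2.91, adjusted p = 8.11e-07) and D16 (1.87, adjusted p = 3.84e-05). Slc22a18, a membrane transporter, had means of 2.63 in D0, 10.8 in D4, 9.69 in D16 and 0.226 in PN. It rose in D4 (1.64, adjusted p = 0.000819) and D16 (1.45, adjusted p = 0.00164) and fell in PN (-1.55, adjusted p = 0.000846). Kcnq1ot1, the non-coding RNA that silences this domain on the paternal copy, stayed under the filter.

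Grb10 encodes an adaptor that binds the insulin and IGF1 receptors and dampens their signal. It lies at chr11:11930499-12037428. Grb10 was at 19.3, 18.9 and 18.9 FPKM in D0 and at 34.4, 28.7 and 33.1 in D4. It was at 46.7, 51.3 and 45.4 in D8, at 37.8, 58.2 and 55.5 in D16, and at 9.17, 8.24 and 9.90 in PN. It had the smallest standard error of the members, and D0, D4 and D8 did not overlap. PN libraries were below all others. Grb10 rose in D8 (1.28 ± 0.15, adjusted p = 4.56e-06) and D16 (1.34, adjusted p = 2.55e-06). In D4 (0.72, adjusted p = 0.00109) and PN (-0.99, adjusted p = 4.02e-05) the adjusted p passed and the change was under the minimum of 1. The PN change reached the minimum without PN replicate 3 (-1.04) or with a pseudocount of 0.1 (-1.06). The D16 mean, 50.5 ± 11.1, was above the PN mean, 9.10 ± 0.833 (2.33, adjusted p = 9.29e-09). Its neighbour Cobl, an actin-nucleating protein gene, fell where Grb10 rose, from 10 FPKM in D0 to 1.55 in D16 (-2.08, adjusted p = 7.93e-05).

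Peg3 and Plagl1 encode zinc finger transcription factors. Peg3, at chr7:6703892-6730462, is known for roles in growth and maternal behaviour. It was at 7.38, 1.54 and 3.7 FPKM in D0 and at 13.7, 13.6 and 11.3 in D4. It was at 16.8, 6.95 and 9.81 in D8, at 14.1, 26.6 and 13 in D16, and at 9.18, 14.3 and 7.81 in PN. All D4, D16 and PN libraries were above D0, and 1 D8 library overlapped it. Peg3 rose in D4 (1.57 ± 0.39, adjusted p = 0.00329), D8 (1.31, 0.00926), D16 (1.96, 0.000478) and PN (1.26, 0.0104), and D16 against PN was not called (0.70, 0.134). The D8 call was lost without D0 replicate 2 (0.88, adjusted p = 0.0576) or D8 replicate 1 (0.999, 0.0534), and the PN call without D0 replicate 2 (0.83, 0.0663) or PN replicate 2 (1.03, 0.0524).

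The antisense RNA Peg3os lies within Peg3, and its means were 4.81 FPKM in D0, 15.6 in D4, 11.9 in D8, 19.9 in D16 and 11.6 in PN. The ratio of Peg3 to Peg3os was 0.612 to 1.14 in D0 and 0.802 to 0.97 in PN. With the strand setting not given, reads of this pair cannot be told apart. Of its imprinted neighbours, the paternally expressed Usp29 had means of 0.386 FPKM in D16 and 4.41 in PN, and Zim1 had 0.307 and 3.12. Both rose in PN (2.39 and 1.70) and were not called in D16. Zim3, which overlaps Usp29, also rose in PN (2.60, adjusted p = 7.25e-10).

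Plagl1, at chr10:13090832-13131694, is a growth-restraining factor that acts on other imprinted genes. It was at 6.46, 8.12 and 12.1 FPKM in D0 and at 21.3, 20.0 and 17.0 in D4. It was at 15.8, 9.30 and 12.1 in D8, at 14.8, 17.1 and 21.3 in D16, and at 22.4, 6.20 and 14.2 in PN. D4 and D16 libraries were above all D0 libraries, and D8 and PN overlapped them. Plagl1 rose in D4 (1.08 ± 0.33, adjusted p = 0.0131), a call lost without D0 replicate 1 (0.90, adjusted p = 0.0586). In D16 its adjusted p of 0.0228 passed and its change of 0.94 was under the minimum. That change reached the minimum without D0 replicate 3 (1.17) or D16 replicate 1 (1.06), with a pseudocount of 0.1 (1.02) and with quantile normalization (1.05). D8 (0.45), PN (0.51) and D16 against PN (0.44) were not called.

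**Figure D3:**
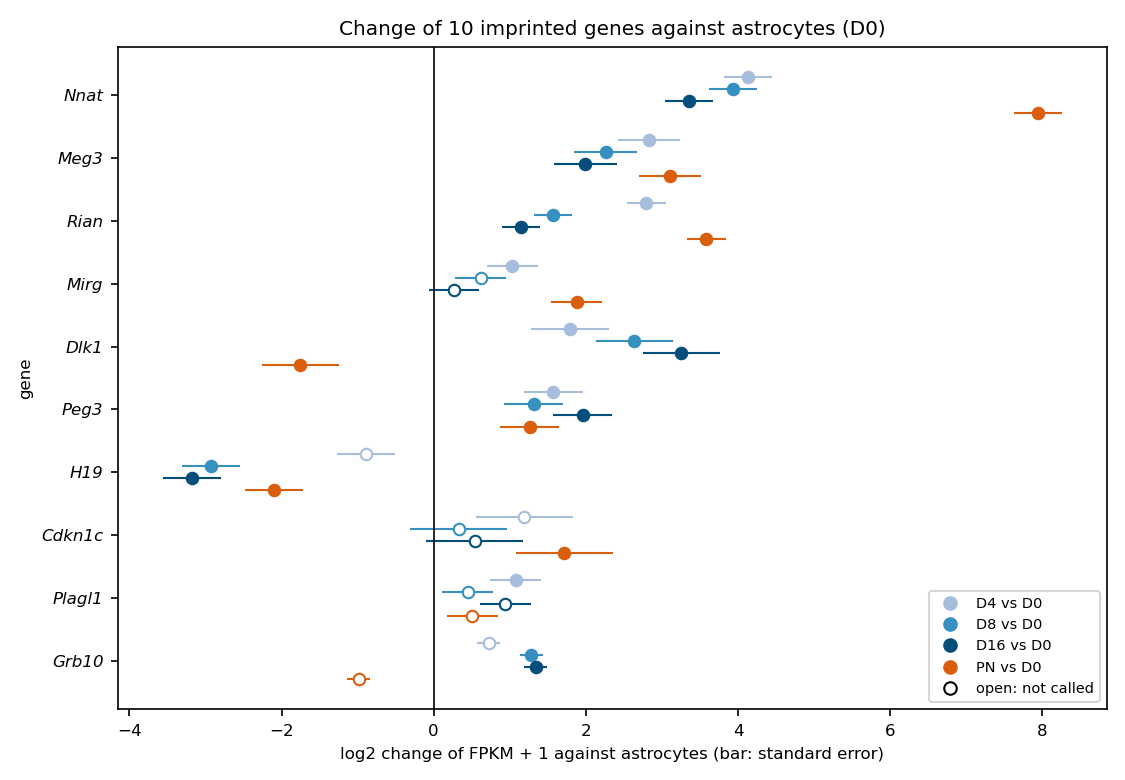
Change of each gene against D0 on the log2(FPKM + 1) scale; bars are standard errors, filled points are called changes and open points are not. Nnat reaches 7.94 in PN against 3.36 in D16, H19 lies to the left of 0 in all 4 comparisons, and Dlk1 and Grb10 lie on opposite sides of 0 in induced cells and in PN.

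From D8 to D16 the libraries overlapped for 9 of the 10 members, and for Nnat all D16 libraries were below all D8 libraries. The share of all genes separated in this way was not computed, so no decline of Nnat is read from it. No member was called by limma, none had an unadjusted p below 0.05, and 0.0286% of all genes tested were called, 0.0215% as higher and 0.00715% as lower. The lowest unadjusted p was 0.0893, for Nnat. The largest changes of members there were 0.64 for Peg3 and 0.62 for Dlk1, with standard errors of 0.39 and 0.51. A miss of the threshold does not show that the levels were equal.

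Genes within 250 kb that reached 5 FPKM in some group moved each way. Near H19, Ctsd, a lysosomal protease, had means of 1082 FPKM in D0, 1527 in D16 and 140.6 in PN and fell in PN (-2.93, adjusted p = 3.51e-09). Lsp1, an actin-binding protein, fell in D16 (-3.36, adjusted p = 2.39e-09) as H19 did, while Mrpl23, a mitochondrial ribosomal protein, was not called (0.32, 0.155). Near Cdkn1c, the decoy receptor genes Tnfrsf22 and Tnfrsf23 had D16 changes of 1.44 (called) and 0.96 (under the minimum), and Tnfrsf23 fell in PN (-2.45, adjusted p = 2.15e-07). Cars rose in PN (1.07, adjusted p = 0.000582), and Nap1l4 and Osbpl5 were not called in D16 or PN. For Osbpl5 the D16 change (-0.81, adjusted p = 0.000272) was under the minimum. Near Plagl1, Utrn fell in D16 (-1.63, adjusted p = 1.75e-05) and in PN (-2.98). Stx11 rose in D16 (1.21, adjusted p = 0.00516) and fell in PN (-1.39), and Sf3b5 and Ltv1 were not called in D16 or PN. Near Grb10, the DNA repair gene Fignl1 fell from 15.4 FPKM in D0 to 0.646 in D16 (-3.31, adjusted p = 1.07e-08).

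The same measures were read for other imprinted genes, in lists written from general knowledge. Some listed genes, such as Cd81, Tssc4, Nap1l4 and Osbpl5, are imprinted only in some tissues. Zim1 stands in the paternal list although it is known as maternally expressed in the mouse. Of 24 other paternally expressed genes tested, 7 rose and 4 fell in D4, 10 rose and 4 fell in D16, and 10 (Zim1 among them) rose and 5 fell in PN. Their median change was 0.32, 0.71 and 0.38. Of 23 other maternally expressed genes tested, 4 rose and 4 fell in D4, 6 rose and 4 fell in D16, and 5 rose and 7 fell in PN, with medians of 0.16, 0.43 and -0.06. The all-gene medians given above are between -0.12 and 0.00, and 27.8%, 35.3% and 41% of all genes tested were called in D4, D16 and PN. The 4 maternally expressed genes that rose in D4 became 2 without D4 replicate 1, 5 without D4 replicate 2 and 6 with a pseudocount of 0.1. The 7 paternally expressed genes became 9 with that pseudocount and 5, of 17 tested, with the filter at 5 FPKM. Both lists thus held called changes each way.

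The paternally expressed genes that fell most in D16 were Mest and Sgce. Mest, a hydrolase-like gene of growing mesoderm, had means of 214 ± 99.2 FPKM in D0, 14.9 ± 6.44 in D4, 4.32 ± 0.926 in D16 and 29.1 ± 25.9 in PN, and its D16 change was -5.25 (adjusted p = 1.51e-07). Sgce, a sarcoglycan, had means of 49.8 in D0 and 3.66 in D16 (-3.52, adjusted p = 1.89e-08). Peg10, a retrotransposon-derived gene that shares a promoter region with Sgce, had means of 32.2 in D0, 164.7 in D4, 84.0 in D16 and 12.1 in PN. It rose in D4 (2.29, adjusted p = 0.000612) and fell in PN (-1.67, adjusted p = 0.00457), a call lost without PN replicate 2 (-0.96). Its D16 call (1.3, adjusted p = 0.0218) was lost without D0 replicate 2 (adjusted p = 0.0569) or D16 replicate 2 (0.0988). Sgce and Peg10, which adjoin, were therefore called in opposite directions in D4.

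The paternally expressed genes that rose most in D16 after Igf2 were Peg13 and Nap1l5. Peg13, a non-coding RNA of the brain, had means of 4.07 FPKM in D0, 36.6 in D16 and 62.1 in PN (D16 change 2.94, adjusted p = 2.33e-08). Nap1l5, a nucleosome assembly protein relative, had means of 1.23 in D0, 16.7 in D16 and 68.9 in PN (2.81, adjusted p = 3.58e-05). Snrpn, a splicing protein gene, and Ndn, a growth suppressor of neurons, were already high in D0, at 63.7 and 131.9 FPKM. They rose in PN, to 309.8 (2.21, adjusted p = 1.81e-07) and 338.9 (1.36, adjusted p = 4.81e-07), while their D16 changes of 0.97 and 0.61 were under the minimum. Snrpn overlaps Snurf, so its reads may be split with it.

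The maternally expressed genes that rose most in D16 were Calcr and Igf2r. Igf2r, the receptor that carries IGF2 to lysosomes, had means of 14.3 ± 3.54 FPKM in D0, 38.9 ± 20.9 in D4, 61.9 ± 28.2 in D8, 124 ± 31.2 in D16 and 5.16 ± 0.760 in PN. It rose in D16 (3.03, adjusted p = 3.08e-06) and fell in PN (-1.30, adjusted p = 0.00467). Calcr, the calcitonin receptor, was listed at 0 in 2 D0 libraries and had a mean of 12.3 FPKM in D16 (3.52, adjusted p = 4.45e-07) and 0.222 in PN. Kcnk9, a potassium channel of neurons, was listed at 0 in all 3 D0 libraries and had means of 3.87 in D16 and 13.1 in PN, both called. Igf2r, Peg10, Dlk1 and Slc22a18 were each higher in D16 than in D0 and lower in PN than in D0, all called. The share of all genes with this pattern was not computed. Stx11, which is in neither list, also had it (1.21 in D16 and -1.39 in PN, both called). For Peg10 both calls rest on single libraries, as given above.

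**Figure D4:**
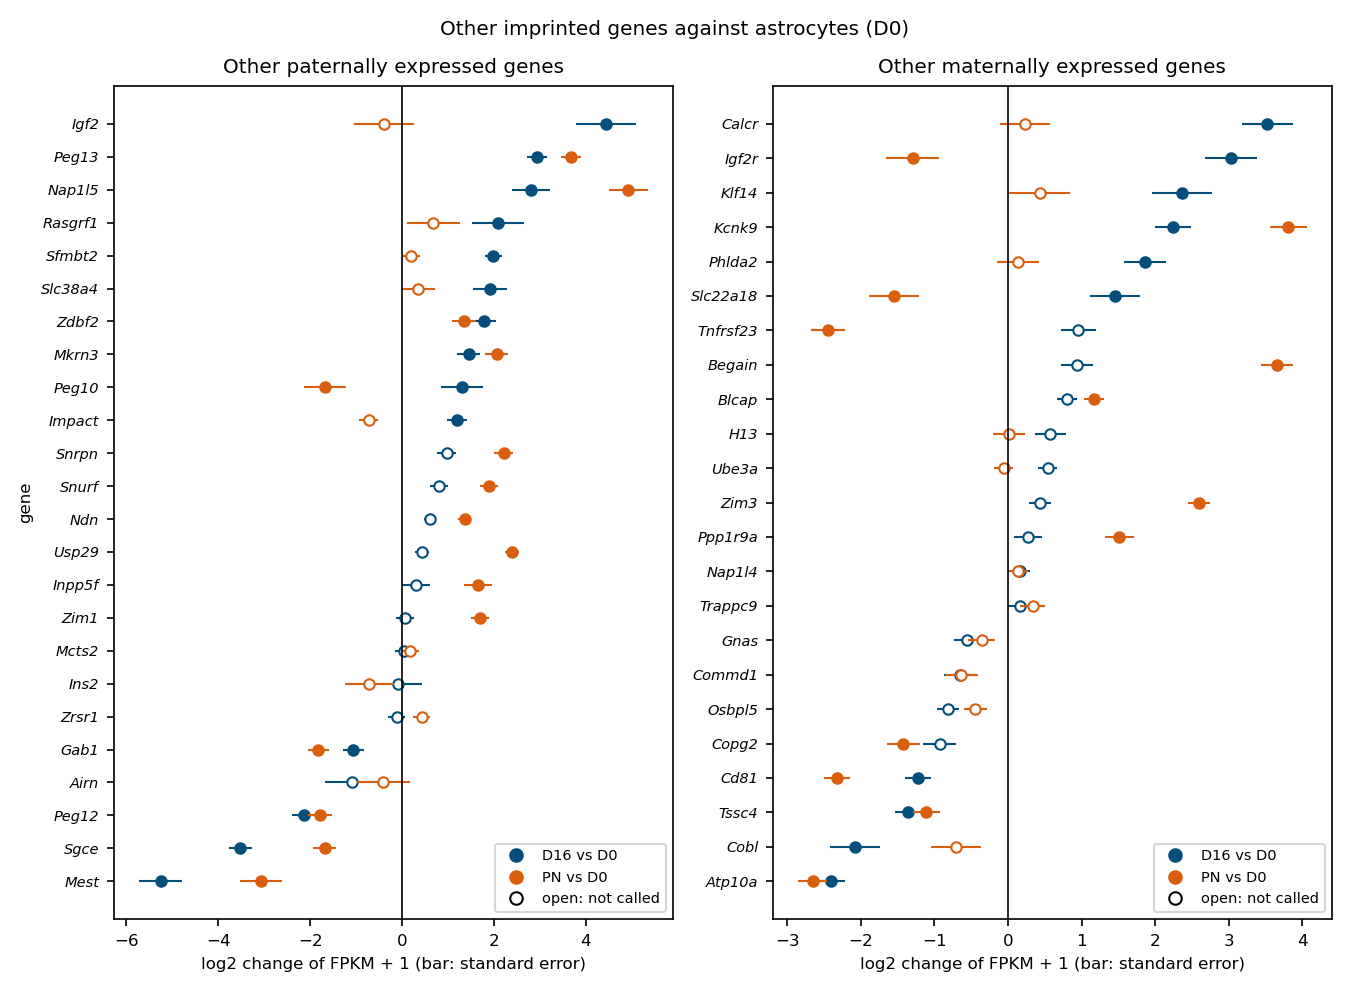
Change of 24 other paternally expressed genes and 23 other maternally expressed genes against D0, on the log2(FPKM + 1) scale, for D16 and PN; bars are standard errors and filled points are called. Zim1 is drawn in the paternal panel, as listed. Both panels hold genes on each side of 0, from 4.45 (Igf2) to -5.25 (Mest) in D16.

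Of 16 genes tested that set or keep imprints, none rose and 4 fell in D4, 2 rose and 3 fell in D16, and 6 rose and 1 fell in PN. These counts stand beside 27.8%, 35.3% and 41% of all genes called, and nothing particular to the list is read from them. Zfp57, the zinc finger protein that binds methylated imprints, had means of 2.91 FPKM in D0, 7.76 in D16 and 47.1 in PN. It rose in D16 (1.09, adjusted p = 0.000619), a call lost without D16 replicate 1 (0.82), and in PN (3.61, adjusted p = 2.18e-09). Uhrf1, which brings the maintenance methylase to newly copied DNA, fell from 29.4 in D0 to 3.66 in D16 (-2.69, adjusted p = 4.2e-07) and 2.92 in PN. Dividing-cell markers moved the same way as Uhrf1, as given above, and their part in it was not tested.

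Of 17 relatives and partners of the members that were tested, 1 rose and 5 fell in D4, 2 rose and 3 fell in D16, and 5 rose and 4 fell in PN, beside the same shares of all genes called. Dlk2, the paralogue of Dlk1, fell in induced cells, where Dlk1 rose. In PN both genes were below their D0 means. Dlk2 had means of 39.1 FPKM in D0, 1.60 in D4, 0.643 in D16 and 18.6 in PN, and fell in D16 (-4.59, adjusted p = 2.25e-08). Of the p57 relatives, Cdkn1b (p27) fell in D16 (-1.18, adjusted p = 4.34e-05), from 58.2 to 25.1 FPKM. Cdkn1a (p21) was not called in D16 (0.41, adjusted p = 0.0704) and fell in PN (-2.14, adjusted p = 9.92e-08). Grb14, a relative of Grb10, fell in D16 (-1.52), from 28.8 to 9.36 FPKM.

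The genes of most similar pattern were ranked by Pearson r of log2(FPKM + 1) over the 15 libraries, among 11618 genes that reached 5 FPKM in some group. These values describe 5 groups in which many other genes differ. For Nnat they were Hist3h2ba (r = 0.993), Coro1a (0.983) and Cdk5r1 (0.98). Hist3h2ba, a histone gene, had means of 5.29 FPKM in D0, 28.5 in D16 and 270.0 in PN. For Rian they were Ybx2 (0.969), Rab40b (0.942) and Uchl1 (0.936), for Meg3 Spns2 (0.924), Plekha1 (0.916) and Dlx1as (0.914), and for Mirg Mpc2 (0.907), Gm15706 and Miat (both 0.899). Miat, itself a long non-coding RNA, had means of 0.578 in D0, 2.11 in D16 and 21.3 in PN. For Dlk1 they were H2-M3 (0.972), Whrn (0.971) and Got1l1 (0.961), and for Grb10 Steap3 (0.989), Pip4k2c (0.987) and Uap1l1 (0.986). Dlk1 and Grb10 correlated with each other at 0.934. Steap3, a ferric reductase, had means of 4.41 in D0, 46.1 in D16 and 0.532 in PN. For H19 they were Slfn9 (0.957) and the DNA repair and replication genes Brca1 and Clspn (both 0.949). For Peg3 they were the overlapping Peg3os (0.972) and A230070E04Rik (0.913). For Cdkn1c (Coro1c, Chac1 and Mthfd2) and Plagl1 (Slc25a51, Ap1s3 and Bves) the highest values were 0.78 and 0.768.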

How the data were processed

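The authors deposited 1 table of FPKM values per gene and library. The genome was mm10 (GRCm38), per the submitters' processing notes. Aligner, quantifier, annotation and strand setting: not given in the sources used here. RNA was isolated with a column kit and sequenced on Illumina libraries, per the labels' protocols. All 15 value columns matched a sample title. Positions and sequences were taken from RefSeq for GRCm38.p6.

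Values were transformed as log2(FPKM + 1), and fold changes on that scale understate the change of low genes. The 13983 genes with at least 1 FPKM in at least 3 of 15 libraries were fitted with limma 3.58.1 (R 4.3.3) in 1 model of 5 group means with 10 residual degrees of freedom, so each gene has 1 standard error for all comparisons. Each of 7 comparisons had its own Benjamini-Hochberg adjustment over all genes tested. Tables and figures were made with Python 3.11.15. The procedure was tested on simulated data. Read counts were not used, and only relative depth was known, from steps of values up to 0.5 FPKM.

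The members and lists were chosen with earlier results of these data known. All members were named, with up to 6 called genes of a list by size of change, list genes of a member's domain, neighbours within 250 kb by the same level rule, and the 3 likest genes, of which 1 is not reported here.

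Same-numbered D4 and D8 libraries deviated from their group means together (r = 0.33 to 0.45 for the 3 pairs, and -0.50 to 0.11 for other pairs). The labels used here do not say whether these libraries were paired. Relative depth of replicates 1, 2 and 3 was 0.722, 1.61 and 0.702 in D4 and 1.04, 1.68 and 0.702 in D8. The part of depth in these correlations was not tested. In the other 6 comparisons not every pair passed 0.1. The fit was repeated with the replicate block, equal FPKM totals, quantile normalization, a filter at 5 FPKM or none, a pseudocount of 0.1, a fit of only the groups compared, no minimum on the change and leaving out each library.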

Additional observations from a re-analysis of the deposited data

How the results depend on the processing

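Of the changes of single members recomputed under the alternatives, 923 kept their direction and their side of the thresholds, 27 lost the call, 13 gained it and 10 changed sign. The calls lost or gained are given beside each gene in the report. With the replicate number as a block, the members called against D0 were 7 in D4, 7 in D8, 7 in D16 and 8 in PN. They were 7 in D16 against PN, 2 in D8 against D4 and 0 in D16 against D8. These are the same numbers as without the block, and it changed no member's call (D4 to D8: Rian -1.23, adjusted p = 0.0149). The block is shared by all 5 groups, so a pairing of D4 and D8 alone was not tested. The number of members called from D4 to D8 was 2 and became 1 to 2 when single libraries were left out. All changes of sign were of changes that were not called, with 1 library left out, and over the libraries left out these values ran as follows. Cdkn1c in D8 against D0 ran from -0.16 (without D0 replicate 1) to 1.04, and Plagl1 in D16 against PN from -0.025 (without PN replicate 2) to 0.82. In D8 against D4, Nnat ran from -0.48 to 0.052 (without D4 replicate 3) and Peg3 from -0.58 to 0.0059 (without D8 replicate 2). In D16 against D8, Meg3 ran from -0.58 to 0.28 (above 0 without D8 replicate 1 or D16 replicate 2), Mirg from -0.59 to 0.021 (without D16 replicate 2), Grb10 from -0.057 (below 0 without D16 replicate 2 or 3) to 0.25 and Dlk1 from -0.0023 (without D16 replicate 3) to 1.17. The cause was not tested. With no minimum on the change, 12 paternally expressed genes of the list were higher in D4 in place of 7. Of the maternally expressed genes, 9 were higher and 7 lower in D4, and 12 higher and 8 lower in D16, in place of 4 and 4, and 6 and 4. Under that rule 7587 of all 13983 genes tested were called in D4 and 8775 in D16, so nothing particular to the lists is read from these counts. The number of libraries, 3 a group, limits most values, and for Cdkn1c and Plagl1 a single PN or D0 library sets the size of the change. Values under 1 FPKM, as in Mirg and in Dlk1 of PN, are compressed by the pseudocount.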
